A study of Drosophila melanogaster with 4 samples.

Results

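mir-282 is a Drosophila microRNA (miRNA) gene whose hairpin gave abundant reads from both arms, miR-282-5p and miR-282-3p. Its members here were all rows of the deposited table named for the mir-282 hairpin, which are 2 rows of 495, 1 for each arm, and 1 of 219 hairpin names. The gene was chosen from these same libraries because its arms differed from the knockout in opposite directions in tailing, so its values against the knockout are given as a description, with no test. Small RNAs of 18 to 30 nt came from S2 cells, a line derived from Drosophila embryos. All 4 groups carry a knockout of the Nibbler gene (nbrKO, made by CRISPR-Cas9). In 3 of them a construct is stably overexpressed under Act5C, the driver of a broadly expressed actin gene. These 3 are Nbr(wt), NbrCTD and NbrCTD-GWp, named as in the labels, which spell out neither CTD nor GWp. Nbr stands for Nibbler, so Nbr(wt) was read as wild-type Nibbler put back into knockout cells, and the others as forms of it. The fourth is nbrKO with no construct. Each group held 1 library, so no difference could be set against the spread between cultures, and the intervals reflect counting alone. In bulk RNA of this kind, fewer cells with a miRNA and less of it per cell cannot be told apart. Cells without the knockout, or with an empty construct, were not analysed here.

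A miRNA hairpin is cut into a duplex of its arms, of which Argonaute usually keeps the guide and discards the passenger. Nibbler is an exonuclease that shortens the 3′ ends of miRNAs held in Argonaute. The same ends can be lengthened by enzymes that add bases not encoded in the genome, called tails; in flies Tailor adds uridines. Genetic work in flies has tied mir-282 to viability and egg production and to rutabaga, an adenylyl cyclase gene.

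In the BDGP6 annotation the mir-282 hairpin lies on the plus strand of chromosome arm 3L, bases 3251022 to 3251118. It lies inside an exon of both annotated transcripts of lncRNA:CR43626, a non-coding gene on the same strand. The annotated 5p arm covers bases 3251038 to 3251061 and is 24 nt long, and the annotated 3p arm covers bases 3251081 to 3251102 and is 22 nt long. The table lists 7 bases for the 5′ end of each arm, shown here because base 2 onward opens the seed, the stretch that pairs with targets. By comparison with well-known mature sequences such as that of bantam, they were read as the first 7 bases of the miRNA, and capitals mark bases 2 to 7.
miR-282-5p: tAGCCTC
miR-282-3p: aCATAGC
No other row of the table had the bases in capitals of either arm, so neither arm had a seed partner among the measured miRNAs. The nearest annotated miRNA gene, mir-955, lay 47.9 kb away on the same strand, and its 5p row held 1 to 5 reads per library.

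The libraries held 20177315 miRNA reads in Nbr(wt) cells, 14786074 in NbrCTD cells, 17766373 in NbrCTD-GWp cells and 13126126 in nbrKO. All 4 miRNAs listed as abundant in S2 cells were present, together at 588431 to 632012 reads per 1000000 miRNA reads (miRNA RPM, with the reads of the arms found in all 4 libraries as the total). All 13 listed markers of muscle, neurons, late larval to adult tissue, early embryo and ovary had reads, at a sum of 170 miRNA RPM in Nbr(wt) cells, 155 in NbrCTD cells, 142 in NbrCTD-GWp cells and 239.5 in nbrKO. Of the 13, 5 passed 100 reads in the Nbr(wt), NbrCTD-GWp and nbrKO libraries, and 2 did so in the NbrCTD library. Their part in the results below was not tested.

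miR-282-5p, the arm with more reads in every library and the one marked TRUE in the table, had a lower tailed share with each construct than in nbrKO. Its tailed share is the percentage of reads whose 3′ end does not match the genome, as the column of prefix-matching reads, abbreviated in the table, was taken to mean. It was 0.637% (exact 95% interval 0.618 to 0.656, 4210 of 661089 reads) in Nbr(wt) cells, 0.828% (0.807 to 0.849, 5940 of 717601) in NbrCTD cells and 0.789% (0.764 to 0.816, 3539 of 448317) in NbrCTD-GWp cells. In nbrKO it was 1.01% (0.979 to 1.04, 3725 of 368331). All 3 construct libraries thus lay below nbrKO with intervals apart, and Nbr(wt) lay lowest. A difference between libraries was called where their exact intervals did not overlap. By that rule 48.2% of the 114 arms that reached 100 reads in each library were lower in Nbr(wt) cells than in nbrKO cells, 32.5% in NbrCTD cells and 44.7% in NbrCTD-GWp cells. The direction of miR-282-5p was therefore the commoner one in the whole table.

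miR-282-3p, the passenger arm, went the other way. Its tailed share was 3.41% (3.30 to 3.51, 3761 of 110423 reads) in Nbr(wt) cells, 3.63% (3.51 to 3.75, 3308 of 91095) in NbrCTD cells and 2.63% (2.54 to 2.72, 3207 of 121840) in NbrCTD-GWp cells. The nbrKO library had 2.07% (2.01 to 2.14, 4185 of 201774). Each construct library lay above nbrKO with intervals apart, and NbrCTD-GWp lay nearest to it. Higher calls were rare over all arms in Nbr(wt) cells, at 5.26%, and in NbrCTD-GWp cells, at 7.02%, and less so in NbrCTD cells, at 18.4%.

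**Figure D1:**
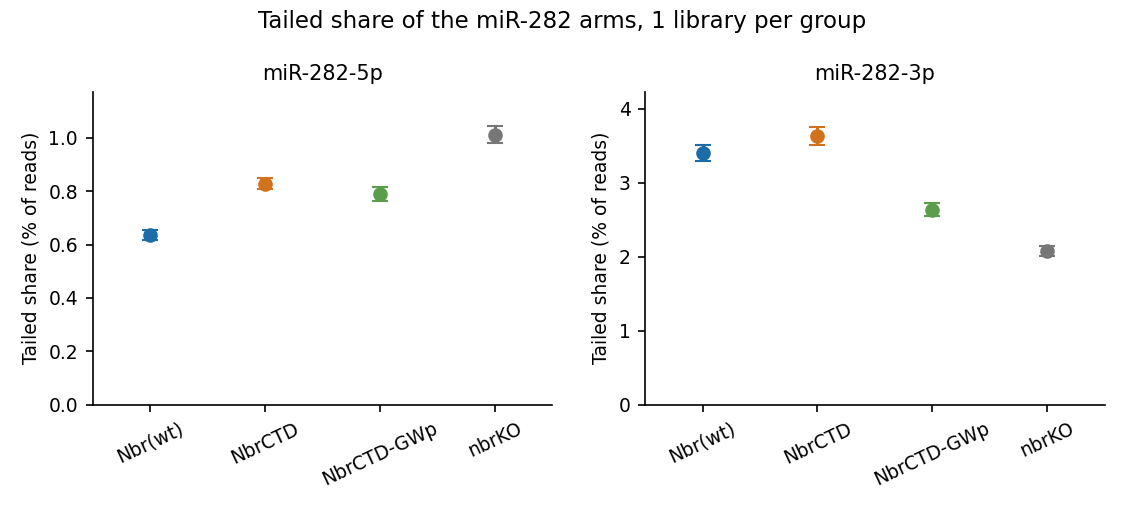
Tailed share of miR-282-5p (left) and miR-282-3p (right) in percent of reads, by library; points are single libraries and bars are exact 95% counting intervals. The 5p arm lies between 0.637% and 0.828% with the constructs and at 1.01% in nbrKO, while the 3p arm lies between 2.63% and 3.63% with the constructs and at 2.07% in nbrKO.

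On the log2 odds scale, the change against nbrKO for miR-282-5p was -0.67 (95% counting interval -0.74 to -0.61) in Nbr(wt) cells, -0.29 (-0.35 to -0.23) in NbrCTD cells and -0.36 (-0.43 to -0.29) in NbrCTD-GWp cells. The medians over the 114 arms were -0.53, -0.18 and -0.45 in the same order, so the 5p arm sat near the middle of the table. For miR-282-3p the change was 0.74 (0.67 to 0.80) in Nbr(wt) cells, 0.83 (0.76 to 0.90) in NbrCTD cells and 0.35 (0.28 to 0.42) in NbrCTD-GWp cells. Counted from the largest increase, the 3p arm ranked 8 in Nbr(wt) cells, 7 in NbrCTD cells and 17 in NbrCTD-GWp cells. These 3 changes share the 1 nbrKO library. With a 1.5-fold difference in share also required, miR-282-5p kept its call in Nbr(wt) cells (32.5% of arms lower by that rule) but not in NbrCTD cells (14.9%) or NbrCTD-GWp (28.1%). miR-282-3p kept its call in Nbr(wt) cells (2.63% higher) and NbrCTD (6.14% higher), and lost it in NbrCTD-GWp cells (2.63%).

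The arms also differed from each other in tailed share, and more so with the constructs. The tailed share of the 3p arm was 5.35 times that of the 5p arm in Nbr(wt) cells, 4.39 times in NbrCTD cells, 3.33 times in NbrCTD-GWp cells and 2.05 times in nbrKO. Gaps between arms were not particular to mir-282. In nbrKO, miR-317-3p had 11.3% and miR-317-5p 1.36%, and in Nbr(wt) cells miR-12-3p had 7.16% and miR-12-5p 0.971%. Other hairpins had narrower gaps, such as bantam in nbrKO (3p 0.599%, 5p 0.758%). Few arms of the table carried fewer tails than miR-282-5p, namely 4 of 114 in Nbr(wt) cells, 8 in NbrCTD cells, 11 in NbrCTD-GWp cells and 13 in nbrKO. miR-282-3p lay above the median of all arms in Nbr(wt) cells (median 2.05%), NbrCTD (2.73%) and NbrCTD-GWp (2.25%), and below it in nbrKO (3.01%).

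Comparisons among the constructs do not use the nbrKO library. For miR-282-5p, NbrCTD was higher than Nbr(wt) by 0.38 on the log2 odds scale (0.32 to 0.44), where 39.5% of arms were higher and 0.877% lower. NbrCTD-GWp was also higher than Nbr(wt), by 0.31 (0.25 to 0.38), where 20.2% of arms were higher. The intervals of NbrCTD-GWp and NbrCTD overlapped for this arm, with a log2 odds ratio of -0.07 (-0.13 to -0.01). For miR-282-3p, NbrCTD-GWp was lower than NbrCTD at -0.48 (-0.55 to -0.41), where 35.1% of arms were lower, and lower than Nbr(wt) at -0.38 (-0.45 to -0.31), where 10.5% of arms were lower. The 3p intervals of NbrCTD and Nbr(wt) overlapped, with a log2 odds ratio of 0.10 (0.03 to 0.16). The order of the constructs was thus not the same for both arms: Nbr(wt) had the lowest share on the 5p arm and NbrCTD-GWp the lowest on the 3p arm.

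A share depends on both kinds of read, so each kind was also followed alone. Genome-matching reads of miR-282-3p stood at 5431 miRNA RPM in Nbr(wt) cells, 6073 in NbrCTD cells and 6875 in NbrCTD-GWp cells, against 15460.4 in nbrKO. Its tailed reads stood at 192, 229 and 186 miRNA RPM with the same constructs, against 327 in nbrKO. The genome-matching reads were thus 0.351, 0.393 and 0.445 times their nbrKO level, and the tailed reads 0.585, 0.699 and 0.568 times. On the log2 scale the genome-matching folds were -1.51, -1.35 and -1.17; median-of-ratios scaling gave -0.92, -0.99 and -0.76 and trimmed means gave -0.72, -0.93 and -0.68, all short of 2-fold, as was -0.92 for NbrCTD-GWp in the authors' RPM. The higher tailed share of the 3p arm therefore went with fewer tailed reads in miRNA RPM, not more. That holds for the 3 constructs under each scaling tried except trimmed means in Nbr(wt) cells, where the log2 fold of tailed reads was 0.013.

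For miR-282-5p, genome-matching reads stood at 33447 miRNA RPM in Nbr(wt) cells, 49231 in NbrCTD cells and 25774 in NbrCTD-GWp cells, against 28529 in nbrKO. Tailed reads stood at 214, 411 and 205 miRNA RPM with those constructs, against 291 in nbrKO. In NbrCTD cells, both kinds of read were higher than in nbrKO, the genome-matching ones 1.73 times and the tailed ones 1.41 times. In Nbr(wt) cells, genome-matching reads were 1.17 times and tailed reads 0.735 times their nbrKO level. Under median-of-ratios scaling and trimmed means, the log2 fold of those genome-matching reads was 0.82 and 1.02, against 0.23 in miRNA RPM, and that of the tailed reads was 0.15 and 0.34, against -0.44. In NbrCTD-GWp cells the genome-matching reads were 0.903 times nbrKO, a log2 fold of -0.15 that turned to 0.10 to 0.35 under the other 3 scalings.

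**Figure D2:**
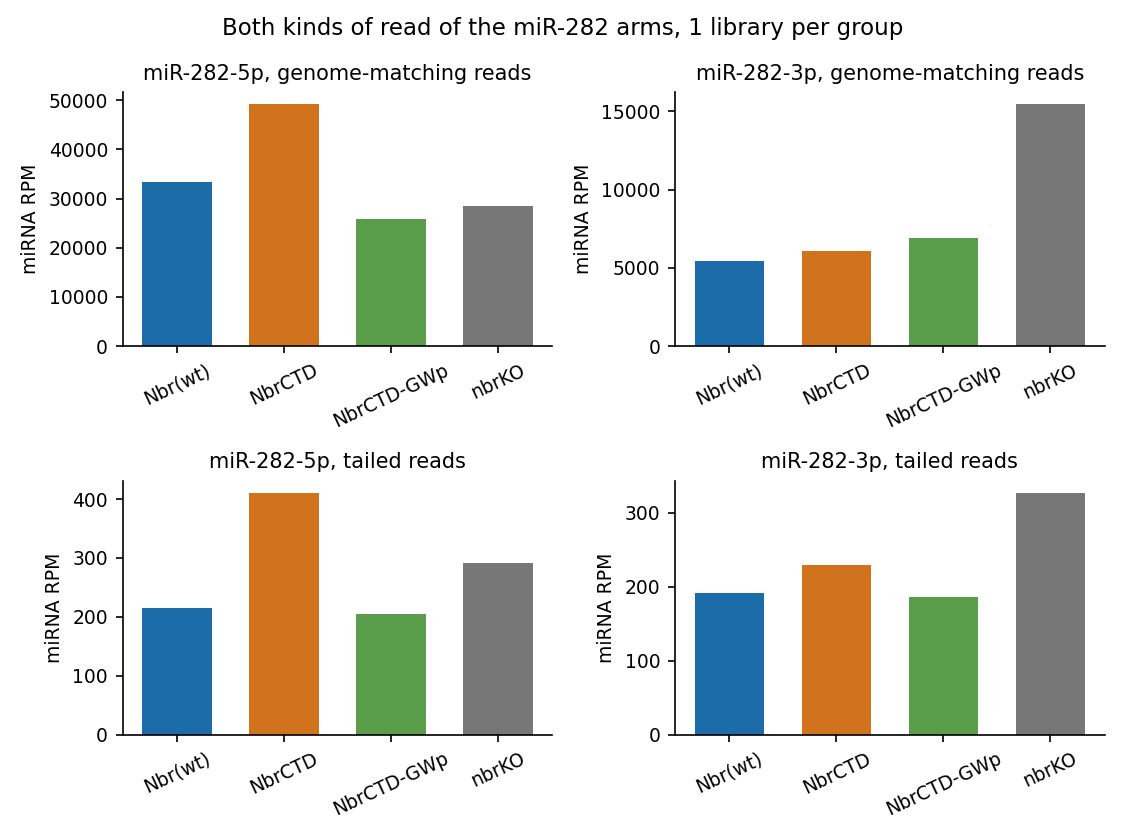
Genome-matching reads (top row) and tailed reads (bottom row) of miR-282-5p (left) and miR-282-3p (right) in miRNA RPM, by library; bars are single libraries and each panel has its own axis from 0. In miR-282-3p both kinds are lower with every construct than in nbrKO on this scale (under trimmed means the tailed reads in Nbr(wt) cells are not), the genome-matching reads (5431 to 6875 against 15460.4) more than the tailed ones (186 to 229 against 327).

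Together the arms gave a pooled tailed share that was lower with every construct than in nbrKO. Counting the reads of both arms as 1 pool, 1.03% (1.01 to 1.06) were tailed in Nbr(wt) cells, 1.14% (1.12 to 1.17) in NbrCTD cells, 1.18% (1.16 to 1.21) in NbrCTD-GWp cells and 1.39% (1.36 to 1.42) in nbrKO. Weighting the arms as in nbrKO, where the 3p arm held 35.4% of the reads, gave 1.62%, 1.82% and 1.44% with the constructs in the same order, all above the 1.39% of nbrKO. The direction of the pooled value thus depended on the mix of arms. Of the tailed reads of the pool, 52.8% came from the 5p arm in Nbr(wt) cells, 64.2% in NbrCTD cells, 52.5% in NbrCTD-GWp cells and 47.1% in nbrKO.

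The ratio of the arms, which needs no scaling between libraries, was lower with every construct than in nbrKO. For each read of miR-282-5p there were 0.167 reads of miR-282-3p in Nbr(wt) cells, 0.127 in NbrCTD cells and 0.272 in NbrCTD-GWp cells, against 0.548 in nbrKO. The ratio in nbrKO was 3.28 times that in Nbr(wt) cells, 4.32 times that in NbrCTD cells and 2.02 times that in NbrCTD-GWp cells. As a share of the reads of both arms, the 3p arm held 14.3% (14.2 to 14.4) in Nbr(wt) cells, 11.3% (11.2 to 11.3) in NbrCTD cells and 21.4% (21.3 to 21.5) in NbrCTD-GWp cells, against 35.4% (35.3 to 35.5) in nbrKO. The libraries lay far apart for their counting error, with nbrKO highest and NbrCTD lowest.

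mir-282 was not alone in this direction. Among 39 hairpins with at least 100 reads from both arms in every library and each arm from 1 locus, a passenger-to-guide ratio at least 1.5-fold lower than in nbrKO, with intervals apart, was seen in 48.7% in Nbr(wt) cells, 41% in NbrCTD cells and 38.5% in NbrCTD-GWp cells. A ratio higher by the same rule was seen in 5.13% in Nbr(wt) cells, 20.5% in NbrCTD cells and 7.69% in NbrCTD-GWp cells. The log2 change of mir-282 was -1.71 in Nbr(wt) cells, -2.11 in NbrCTD cells and -1.01 in NbrCTD-GWp cells, against medians over the 39 of -0.49, -0.14 and -0.04. Counted from the lowest, it ranked 4, 2 and 10 of 39 in that order.

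**Figure D3:**
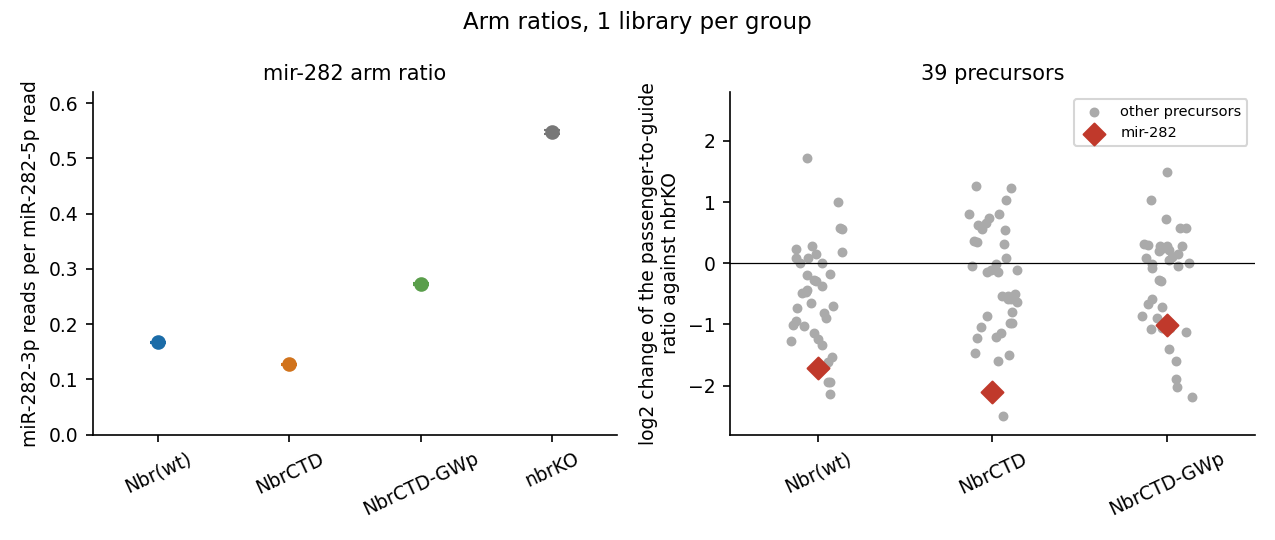
Left: reads of miR-282-3p per read of miR-282-5p, by library, with exact 95% counting intervals that are about as narrow as the points. Right: log2 change of the passenger-to-guide ratio against nbrKO for 39 hairpins, with mir-282 as a diamond. The mir-282 ratio is 0.127 to 0.272 with the constructs and 0.548 in nbrKO, and its changes of -1.71, -2.11 and -1.01 lie toward the low end of the hairpins.

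By level, miR-282-5p was among the most abundant arms everywhere. It stood at 33662 miRNA RPM in Nbr(wt) cells, 49642 in NbrCTD cells, 25979 in NbrCTD-GWp cells and 28820.2 in nbrKO, and ranked 6, 4, 7 and 7 of 123 arms. Its log2 fold against nbrKO (on values with 1 added) was 0.22 in Nbr(wt) cells, 0.78 in NbrCTD cells and -0.15 in NbrCTD-GWp cells, none past the 2-fold threshold. These folds depended on scaling: the Nbr(wt) value passed 2-fold under trimmed means (1.01), the NbrCTD value did so under median-of-ratios scaling (1.145) and trimmed means (1.204), and the NbrCTD-GWp value turned positive under the other 3 scalings. Of the 123 arms, 6.5% were called 2-fold higher in Nbr(wt) cells, 8.94% in NbrCTD cells and 8.13% in NbrCTD-GWp cells. miR-282-3p stood at 5623 miRNA RPM in Nbr(wt) cells, 6302 in NbrCTD cells and 7060.5 in NbrCTD-GWp cells, against 15788 in nbrKO, so each construct library was more than 2-fold below nbrKO on this scale. Of the 123 arms, 25.2% were called 2-fold lower in Nbr(wt) cells, 15.4% in NbrCTD cells and 17.1% in NbrCTD-GWp cells. The log2 folds of miR-282-3p were -1.49, -1.32 and -1.16. They stayed negative under every scaling, at -0.67 to -1.31 over the other 3 scalings, but median-of-ratios and trimmed-mean scaling left all 3 short of 2-fold, as did the authors' RPM for NbrCTD-GWp.

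The 5′ ends of the passenger arm were also less uniform with the constructs. The table gives the fraction of an arm's reads that begin at the listed base, and the remainder begin elsewhere. For miR-282-3p the remainder was 5.81% (5.67 to 5.94) in Nbr(wt) cells, 5.07% (4.93 to 5.21) in NbrCTD cells and 4.68% (4.57 to 4.80) in NbrCTD-GWp cells, against 3.70% (3.62 to 3.78) in nbrKO. All 3 lay above nbrKO with intervals apart, as did 17.4% of 109 arms in Nbr(wt) cells, 23.9% in NbrCTD cells and 21.1% in NbrCTD-GWp cells. The higher remainder of miR-282-3p went with fewer such reads in the authors' RPM. They stood at 209.5 in Nbr(wt) cells, 183.6 in NbrCTD cells and 219.2 in NbrCTD-GWp cells, against 322.6 in nbrKO. Other scalings were not tried for these reads. For miR-282-5p the remainder was 1.33% (1.31 to 1.36) in Nbr(wt) cells, 1.35% (1.32 to 1.38) in NbrCTD cells and 1.53% (1.49 to 1.56) in NbrCTD-GWp cells, against 1.43% (1.39 to 1.47) in nbrKO. Here Nbr(wt) and NbrCTD lay just below nbrKO (as did 19.3% and 11% of arms) and NbrCTD-GWp just above it. The median over the 109 arms was 3.27% in Nbr(wt) cells, 3.36% in NbrCTD cells, 3.34% in NbrCTD-GWp cells and 3.34% in nbrKO.

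**Figure D4:**
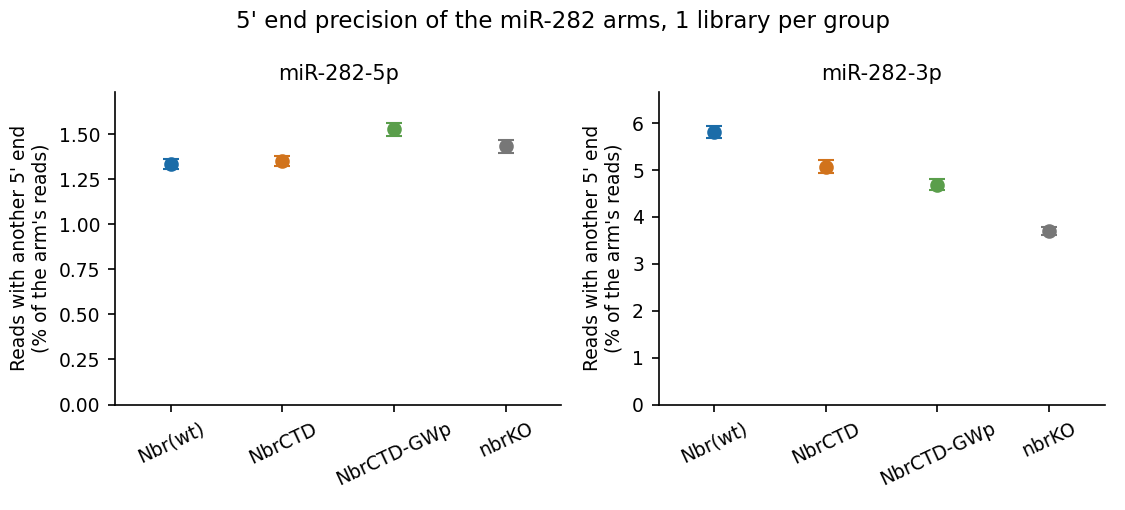
Reads that begin at a 5′ base other than the listed one, in percent of the arm's reads, for miR-282-5p (left) and miR-282-3p (right), by library; bars are exact 95% counting intervals. The 3p arm spans 4.68% to 5.81% with the constructs and is at 3.70% in nbrKO, while the 5p arm stays between 1.33% and 1.53% in all libraries.

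Among the 39 hairpins, arms called in opposite directions were a minority with each construct. A call needs intervals apart, so it depends on depth, and opposite signs also occurred without calls on both arms. In mir-190 (50363 reads, against 2720470 for mir-282), mir-12, bantam and mir-968, the 5p change was negative and the 3p change positive with all 3 constructs. For mir-968 the 3p value in NbrCTD cells was only 0.0004. The arms of mir-7 and mir-308 also differed in sign with all 3 constructs, but not always in that direction. The log2 odds ratios of mir-190 in Nbr(wt) cells were -0.54 (5p, not called) and 0.96 (3p). The pattern of mir-282, 5p lower and 3p higher than nbrKO, was called in 5.13% of the 39 hairpins in Nbr(wt) cells, 12.8% in NbrCTD cells and 10.3% in NbrCTD-GWp cells. These shares count mir-282 itself, which was chosen for this pattern. The pattern was called with all 3 constructs in 2 of 39, mir-282 itself and mir-283, which is named after its values were seen. For miR-283-5p the tailed share was 2.57% in Nbr(wt) cells, 3.92% in NbrCTD cells and 2.95% in NbrCTD-GWp cells, against 7.14% in nbrKO, and for miR-283-3p it was 5.01%, 6.36% and 5.36%, against 2.89%. Arms called apart in either direction made up 5.13% in Nbr(wt) cells, 15.4% in NbrCTD cells and 10.3% in NbrCTD-GWp cells. Over at least 1 construct, 8 of 39 hairpins had arms called apart, in 7 of them with the 5p arm lower. By depth, those with the most reads were bantam, a growth-promoting miRNA, mir-282, mir-980, mir-996 and mir-306. Besides mir-282, bantam met the rule in NbrCTD-GWp cells alone, and mir-980, mir-996 and mir-306 in NbrCTD cells alone.

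Among the same 39 hairpins, miR-282-3p was one of the passengers whose tailed share was called higher. Those were fewer than the passengers called lower, though only just in NbrCTD cells. In Nbr(wt) cells 3 passengers were higher and 13 lower, in NbrCTD cells 7 and 8, and in NbrCTD-GWp cells 4 and 9. Guides were higher in 2 and lower in 30 in Nbr(wt) cells, 8 and 23 in NbrCTD cells, and 3 and 32 in NbrCTD-GWp cells. miR-282-5p stood with the majority of guides in each. Over all 114 arms, 5.26%, 18.4% and 7.02% were called higher in the same order of constructs. The shares called lower were 48.2%, 32.5% and 44.7%. Calls depend on depth and passengers have fewer reads, so these counts do not compare guides with passengers. They also include mir-282, which was chosen for this trait. Of 10 arms listed as reported Nibbler substrates, to which neither mir-282 arm belongs, 7 had enough reads, of which 5 were lower in Nbr(wt) cells, 4 in NbrCTD cells and 5 in NbrCTD-GWp cells, beside 48.2%, 32.5% and 44.7% of all 114 arms. None of the 7 was called higher in Nbr(wt) or NbrCTD cells, and 1 was in NbrCTD-GWp cells, beside 5.26%, 18.4% and 7.02% of all 114 arms. With 7 arms, counts this small cannot be told from those shares. The list stood at median log2 odds ratios of -1.38, -0.41 and -1.01, against -0.53, -0.18 and -0.45 over all 114 arms. The list came from general knowledge, and 2 of its arms, miR-100-5p and miR-3-3p, also stand among the markers of other tissues.

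The hairpins most like mir-282 were found by the distance over 6 values, the log2 odds ratios of 2 arms with 3 constructs. This is a likeness over 3 comparisons that share the 1 nbrKO library. The nearest was mir-190, at a distance of 0.70. miR-190-5p had tailed shares of 1.06% in Nbr(wt) cells, 1.18% in NbrCTD cells and 1.28% in NbrCTD-GWp cells, against 1.53% in nbrKO, and its intervals overlapped that of nbrKO each time. miR-190-3p had 3.32%, 4.0% and 3.08%, against 1.73%. Next came mir-12 at 0.89, whose 5p arm had 0.971%, 0.828% and 0.951%, against 1.40%, and whose 3p arm had 7.16%, 7.35% and 9.61%, against 5.37%. The 3p intervals of mir-12 in Nbr(wt) and NbrCTD cells overlapped that of nbrKO. After mir-12 came mir-279 at 0.96. Its 5p arm had 2.18%, 2.66% and 2.42%, against 2.61%, and its 3p arm, the guide, had 6.84%, 6.90% and 6.28%, against 5.80%. The 5p intervals of mir-279 overlapped that of nbrKO each time, and its 5p share in NbrCTD cells was slightly above nbrKO. As in mir-282, the 5p arms of mir-190 and mir-12 gave more reads than their 3p arms in every library.

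**Figure D5:**
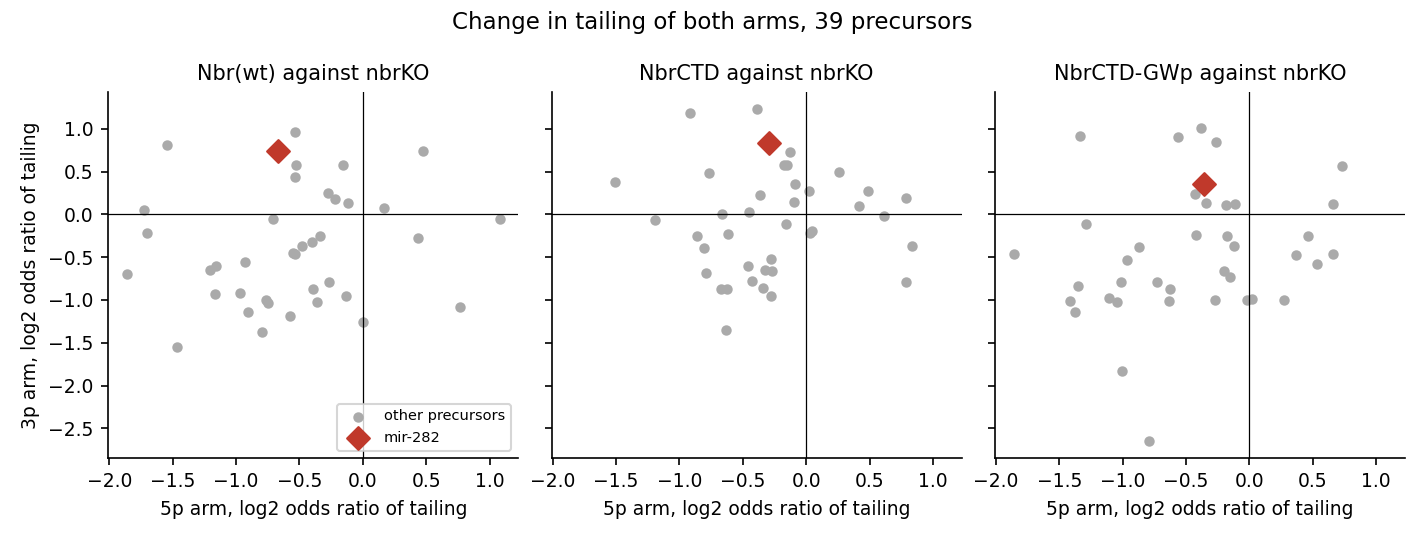
Log2 odds ratio of tailing against nbrKO for the 5p arm (horizontal) and the 3p arm (vertical) of 39 hairpins, 1 panel per construct; each point is 1 hairpin and the diamond is mir-282. mir-282 lies at the upper left in every panel (5p -0.67, -0.29 and -0.36; 3p 0.74, 0.83 and 0.35).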

How the data were processed

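The members and lists were chosen with earlier results of these data known. The authors' deposited table gives 2 columns of aligned reads for each library, headed GM and PM. The headers name neither the unit nor the abbreviations: the authors' values were taken as RPM because they step by 1 fixed amount per library, and GM and PM were read as genome-matching reads and as prefix-matching reads with an untemplated 3′ tail. A deposited fraction states how much of an arm begins at the listed 5′ end. Per the submitters' processing notes, cutadapt 1.2.1 was used, as was HTSeq 0.9.1, with no role stated; the aligner is not given in the sources used here, nor is a build. A TRUE or FALSE column marks arms, and 4 columns of row types were not used.

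RPM values were divided by the worth of 1 read in each library, which gave whole reads (within 0.01) for 94.8% to 95.9% of GM and 91.7% to 95.2% of PM values above 0, and for all values of mir-282. The totals behind RPM came to 32488012 reads in Nbr(wt) cells, 26500155 in NbrCTD cells, 27312149 in NbrCTD-GWp cells and 24005045 in nbrKO. Loci of 1 name were summed, so that 270 rows with values in each library made 261 arms. With 1 library per group no test or count model was run: intervals are exact Clopper-Pearson (shares) or Poisson (levels) at 95%, on reads rounded to whole numbers (Python 3.11.15, scipy 1.17.1). Per the labels' protocols the adapters carry random bases; whether PCR copies were removed is not stated, so the intervals cover counting error only. Odds ratios had 0.5 reads added. Abundance was called on arms averaging 100 reads or more.

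Named beyond mir-282 were the 3 hairpins nearest in tailing, hairpins with arms called apart (at most 5 by depth), seed partners and listed substrates. miR-263a was matched to its table name bft through RefSeq synonyms. The 5′ ends of mir-282 in the table equal the BDGP6 starts once 1 is added. Over the table, 0 of 99 rows on 2R, 0 of 94 on 3R, 0 of 120 on X and 7 of 60 on 3L fell on such starts. The table's build may therefore be another. Table coordinates are not printed, and mir-282 positions come from the Ensembl annotation. Full mature sequences were not used here.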

Additional observations from a re-analysis of the deposited data

How the results depend on the processing

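Tailed shares and the arm ratio need no scaling. The settings tried for tailed share altered only the rule for a call, so the sign of a change could not differ. With Wilson intervals all 6 calls of tailed share held. With genome-matching reads alone or all 5′ isoforms the arm ratio stayed past 1.5-fold lower with every construct. Requiring a 1.5-fold difference in share ended the calls of miR-282-5p with NbrCTD (log2 odds ratio -0.29) and NbrCTD-GWp (-0.36) and of miR-282-3p with NbrCTD-GWp (0.35). Abundance depended on scaling. Relative to miRNA totals, log2 folds with Nbr(wt), NbrCTD and NbrCTD-GWp shifted by 0.59, 0.36 and 0.41 with median-of-ratios size factors, by 0.79, 0.42 and 0.49 with trimmed means, and by 0.18, 0.04 and 0.25 with the authors' RPM. For miR-282-3p this left -0.90, -0.96 and -0.75 with size factors, -0.70, -0.91 and -0.67 with trimmed means, and -0.91 with NbrCTD-GWp in the authors' RPM, all short of 2-fold. miR-282-5p passed 2-fold with Nbr(wt) under trimmed means (1.01) and with NbrCTD under both (1.145 and 1.204), and with NbrCTD-GWp its fold turned positive (0.26, 0.34 and, in RPM, 0.10). Levels of each kind of read were rescaled as an alternative chosen after seeing the data: genome-matching miR-282-5p reads with NbrCTD-GWp turned to 0.26, 0.35 and, in RPM, 0.10, tailed miR-282-5p reads with Nbr(wt) to 0.15 and 0.34, and tailed miR-282-3p reads with Nbr(wt) to 0.013 under trimmed means. Pseudocounts of 0.5 and 10 changed no call. Without a filter on reads, 57, 46 and 47 of 261 arms were called in abundance with Nbr(wt), NbrCTD and NbrCTD-GWp, against 39, 30 and 31 of 123 with it, so the counts were larger but the called shares smaller. Tailed share over all 5′ isoforms was not run, since the table lists 1 isoform of each mir-282 arm. No paired analysis was possible because each group held 1 library, and no library could be left out.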
